A study of Mus musculus with 4 samples.

Results

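Reactive astrocyte genes are transcripts that astrocytes raise after injury to the brain, and the 10 described here are Gfap, Vim, Lcn2, Timp1, Ptx3, Cd44, S1pr3, Emp1, Steap4 and Aspg. They were chosen by gene symbol, as a list of injury-induced astrocyte genes. The rule uses no measured value, but the list was written with earlier results of these data known. All 10 were present among the 22609 genes in each count file, and all 10 were among the 14978 genes with enough reads to be tested. The 4 RNA-seq libraries came from hippocampi of C57BL/6 mice, 2 from the genotype PELP1 FBKO and 2 from the genotype FLOXED. FBKO stands for a forebrain knockout of PELP1, a coregulator protein of the estrogen receptor, and FLOXED mice, the control genotype, carry the floxed gene. Every animal of both genotypes was ovariectomized, carried a mini pump releasing estradiol (E2), underwent global cerebral ischemia (GCI) and was killed after 24 h of reperfusion. Neither the promoter that drives the deletion, nor the animals' age, nor the number of animals behind a library is given in the labels used here. Without a group free of ischemia or of estradiol, no gene can be said to have been induced by either, and the comparison concerns the genotypes after both.

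Astrocytes that sense injury enlarge, build more intermediate filaments and release proteins that act on the matrix, on iron and on immune cells. The cytokines of the interleukin-6 family, which signal through the receptor subunit gp130 and the transcription factor STAT3, are among the signals known to drive this state. In the hippocampus after global ischemia, astrocytes react in and around the CA1 field, where pyramidal neurons are most vulnerable. Several of the 10 genes are also made by other cells: Vim by endothelial cells and fibroblasts, Cd44 by leukocytes, and Lcn2 by neutrophils. In whole tissue, fewer cells of a type and less RNA per cell cannot be told apart.

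The 4 libraries held between 17524594 and 22447658 reads assigned to genes. Levels are given as CPM, counts scaled to library size, with library sizes adjusted by the TMM factors of edgeR, which lay between 0.983 and 1.03. A count of 0 allows up to 0.171 CPM in the shallowest library, taking 3 reads as the floor. Pelp1, the targeted gene, was at 17.9 and 17.3 CPM in PELP1 FBKO, against 26.7 and 26.2 CPM in FLOXED, and the genotypes did not overlap (log2 fold change -0.59, SE 0.149, edgeR quasi-likelihood, adjusted p = 0.13). The labels do not say which exons were removed, and counts over the whole gene need not reach 0. By edgeR's quasi-likelihood test over all genes, 0 genes were called higher and 0 lower in PELP1 FBKO at an adjusted p of 0.05, or 0.0% of those tested in each direction. At an unadjusted p of 0.05 there were 1509 higher and 832 lower, DESeq2 called 319 and 130, and limma-voom 0 and 0. Whether libraries of 1 genotype are separate animals is not in the labels, and p-values here reflect the spread between libraries, which may be technical only.

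The promoters of 4 of the genes are shown because all 10 genes had the same lowest library, by very different amounts. Timp1 had the widest range between libraries and Gfap the smallest ratio between the PELP1 FBKO libraries, while Emp1 and Steap4 were the genes with a match to a searched motif. Each sequence is the 250 bases before a RefSeq transcript start, 5′ to 3′ on the gene's strand, in build GRCm38.p6, and capitals mark motif matches on either strand. The lines hold Timp1 (chrX:20869916-20870165, plus strand), Gfap (chr11:102897201-102897450, minus strand), Emp1 (chr6:135362681-135362930, plus strand) and Steap4 (chr5:7960222-7960471, plus strand).
Timp1: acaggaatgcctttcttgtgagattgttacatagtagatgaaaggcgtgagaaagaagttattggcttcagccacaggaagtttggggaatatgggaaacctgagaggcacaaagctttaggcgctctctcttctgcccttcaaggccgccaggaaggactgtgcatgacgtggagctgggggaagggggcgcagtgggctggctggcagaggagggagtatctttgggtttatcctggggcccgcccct
Gfap: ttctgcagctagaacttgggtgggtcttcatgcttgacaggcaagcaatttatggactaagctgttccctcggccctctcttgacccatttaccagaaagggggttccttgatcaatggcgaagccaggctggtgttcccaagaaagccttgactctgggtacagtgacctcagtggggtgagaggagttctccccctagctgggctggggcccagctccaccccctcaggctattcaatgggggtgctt
Emp1: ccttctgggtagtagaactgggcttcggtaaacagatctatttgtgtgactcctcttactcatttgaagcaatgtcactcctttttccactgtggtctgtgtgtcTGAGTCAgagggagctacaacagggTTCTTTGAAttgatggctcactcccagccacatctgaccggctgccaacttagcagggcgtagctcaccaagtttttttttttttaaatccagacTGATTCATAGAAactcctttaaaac
Steap4: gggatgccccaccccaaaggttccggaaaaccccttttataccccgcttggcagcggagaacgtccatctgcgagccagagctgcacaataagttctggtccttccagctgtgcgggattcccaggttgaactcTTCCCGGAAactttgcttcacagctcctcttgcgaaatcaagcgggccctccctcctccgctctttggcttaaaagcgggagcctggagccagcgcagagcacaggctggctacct

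All 10 genes matched the promoter table, with 11 windows in all, since Emp1 has a second annotated start. The STAT motif, TTCNNNGAA, was found in 2 of the 11 windows, those of Emp1 and Steap4, and in 7.02% of all 32851 windows of the same length. The AP-1 motif, TGANTCA, was found in 1 of the 11 windows, that of Emp1, and in 6.75% of all windows. In Emp1 the STAT matches began 120 and 22 bases before the start and the AP-1 matches 145 and 25 bases before it, so that 1 STAT match and 1 AP-1 match overlap. In Steap4 the STAT match began 116 bases before the start. A match is a run of letters and was not tested as a binding site.

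The level of every one of the 10 genes was lowest in PELP1 FBKO 1, the first of the PELP1 FBKO libraries, for Steap4 by a negligible margin. Among all tested genes 26.1% were lowest in that library. The other PELP1 FBKO library, PELP1 FBKO 2, was at least 2-fold above PELP1 FBKO 1 in all 10 genes, where 3.76% of tested genes reached that ratio. Their median ratio of PELP1 FBKO 2 over PELP1 FBKO 1 was 3.68, with a range between 2.59 and 28.9, against a median of 1.01 over all tested genes. In 5 of the 10, Gfap, Vim, Emp1, Steap4 and Aspg, PELP1 FBKO 1 was the lowest and PELP1 FBKO 2 the highest of the 4 libraries, an order that 5.04% of tested genes had. Between the FLOXED libraries the median ratio, FLOXED 2 over FLOXED 1, was 1.10, with a range between 0.401 and 2.33. There 1 gene (Ptx3) was at least 2-fold higher and 1 (Lcn2) at least 2-fold lower in FLOXED 2, where 1.56% and 1.47% of tested genes were. These ratios compare single libraries and have no replicate check.

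**Figure D1:**
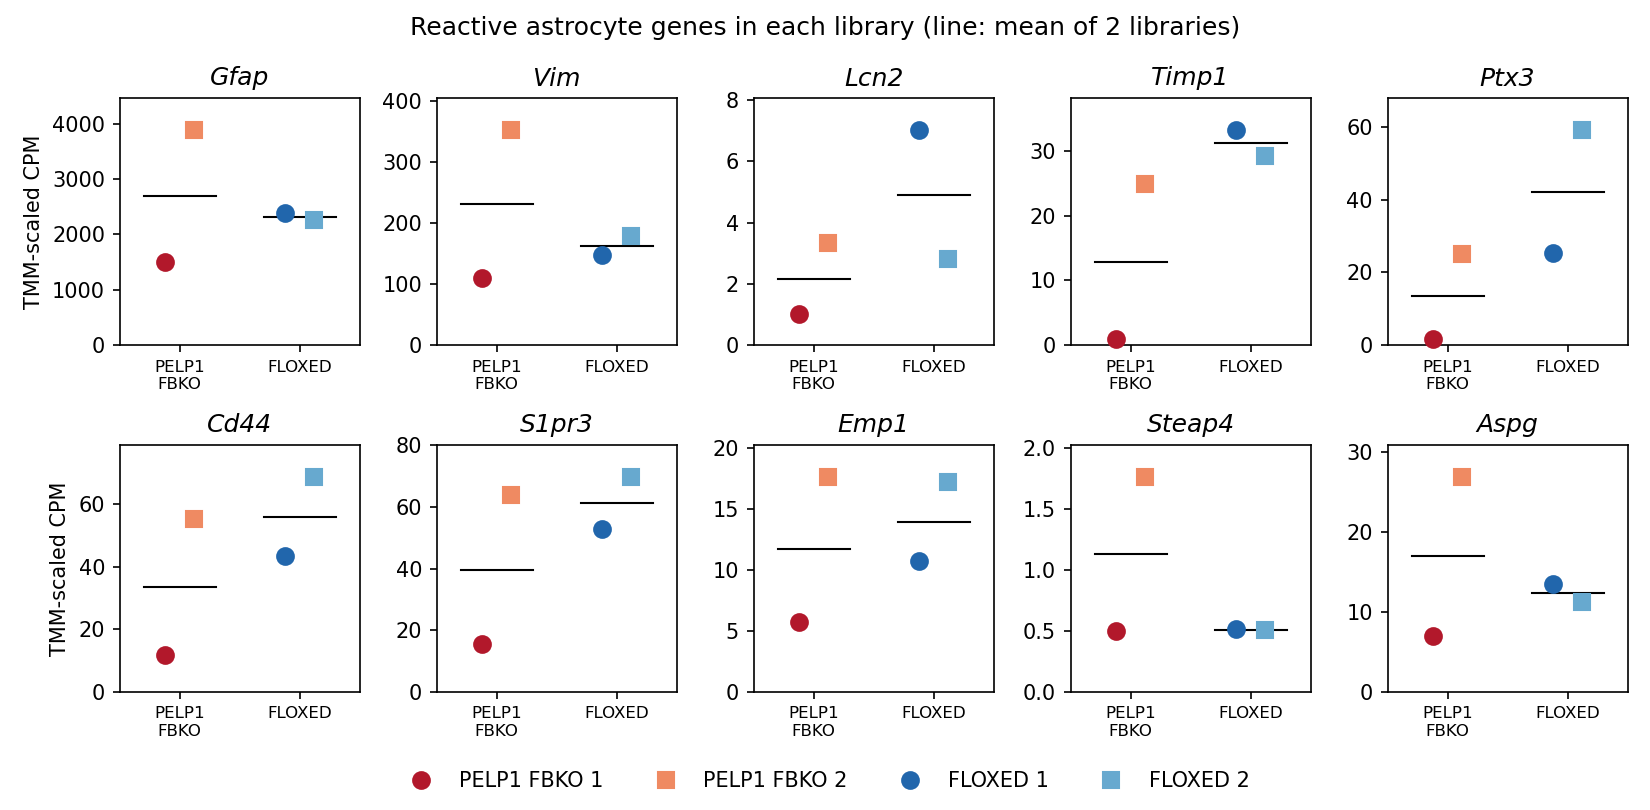
TMM-scaled CPM of the 10 reactive astrocyte genes, 1 panel per gene with its own axis starting at 0; points are the 2 PELP1 FBKO libraries (left) and the 2 FLOXED libraries (right), and lines are genotype means. PELP1 FBKO 1 is the lowest point in every panel, and PELP1 FBKO 2 is the highest for Gfap, Vim, Emp1, Steap4 and Aspg.

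**Figure D2:**
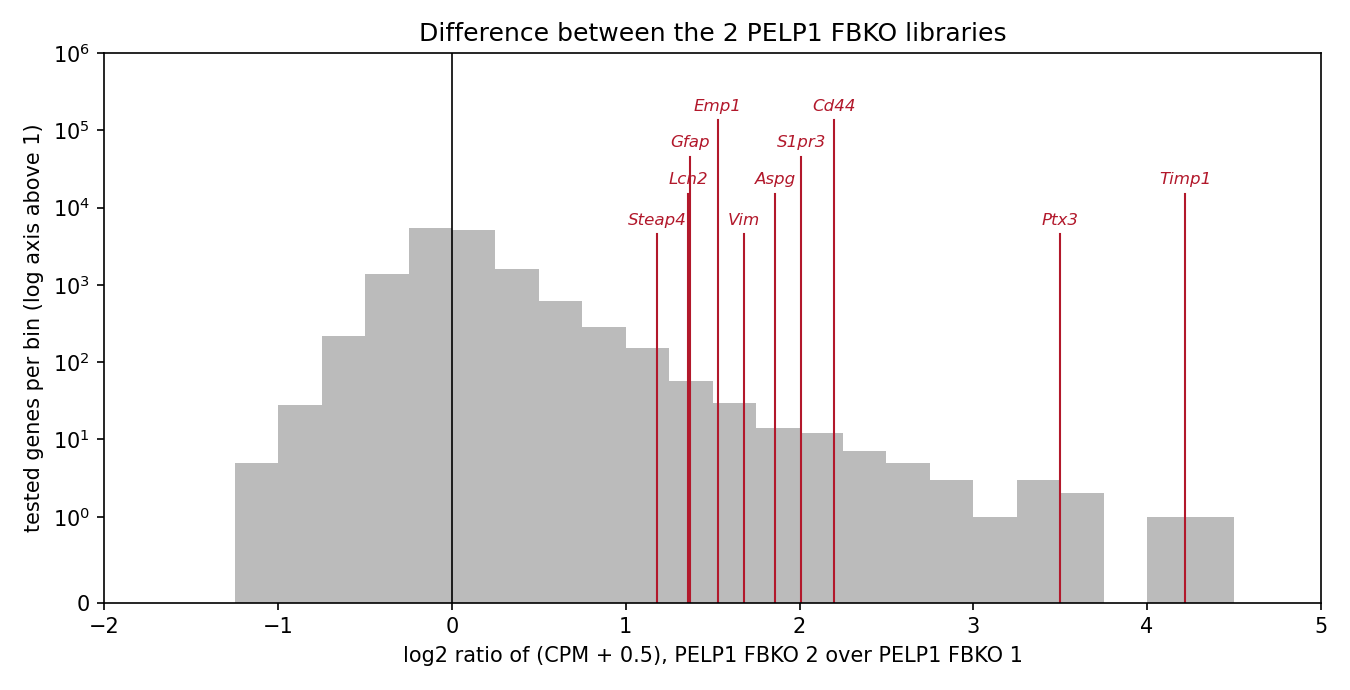
Histogram of the log2 ratio of CPM plus 0.5, PELP1 FBKO 2 over PELP1 FBKO 1, over 14978 tested genes (log count axis), with the 10 reactive astrocyte genes as labelled lines. All 10 lie to the right of 0, between 1.18 for Steap4 and 4.22 for Timp1 on this scale, which understates the ratio of low genes.

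Of the filament genes, Gfap encodes the main intermediate filament protein of astrocytes. It was at 1500 and 3882 CPM in PELP1 FBKO 1 and 2, against 2382 and 2258 CPM in FLOXED 1 and 2, from between 33096 and 79253 reads. The FLOXED libraries lay close together, 1 PELP1 FBKO library lay below both and the other above both. The means were 2691 ± 1684 CPM in PELP1 FBKO and 2320 ± 87.4 CPM in FLOXED (SD, n = 2 each), and the difference was within the spread of the PELP1 FBKO pair (log2 fold change 0.21, SE 0.376, edgeR quasi-likelihood, adjusted p = 0.83). Vim encodes vimentin, a filament protein that astrocytes coassemble with GFAP. It was at 109 and 352 CPM in PELP1 FBKO, against 147 and 179 CPM in FLOXED. Again the PELP1 FBKO libraries lay on either side of both FLOXED libraries, and the log2 fold change was 0.50 (SE 0.437, edgeR quasi-likelihood, adjusted p = 0.618). Counting error was small beside these gaps: the ratio of PELP1 FBKO 2 over PELP1 FBKO 1 was 2.59 for Gfap (95% exact binomial interval 2.55 to 2.62) and 3.22 for Vim (3.07 to 3.37). These intervals cover counting error only.

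Of the secreted proteins, Timp1 encodes an inhibitor of matrix metalloproteinases and showed the largest gap of the 10 genes between the PELP1 FBKO libraries. It was at 0.861 and 24.9 CPM in PELP1 FBKO, against 33.2 and 29.2 CPM in FLOXED. The reads behind these values were 19 and 509 in PELP1 FBKO, and 583 and 634 in FLOXED. PELP1 FBKO 1 was almost without Timp1, while PELP1 FBKO 2 was near the FLOXED pair and just below it. The ratio of PELP1 FBKO 2 over PELP1 FBKO 1 was 28.9 (95% exact binomial interval 18.3 to 48.5), and that of FLOXED 2 over FLOXED 1 was 0.880. Ptx3 encodes a long pentraxin, a secreted pattern recognition protein. Its level was 1.77 and 25.2 CPM in PELP1 FBKO, against 25.4 and 59.2 CPM in FLOXED. The genotypes did not overlap, but PELP1 FBKO 2 and FLOXED 1 were nearly equal. The ratio between the PELP1 FBKO libraries was 14.2 (95% exact binomial interval 10.3 to 20.3). Lcn2 encodes lipocalin 2, a secreted protein that binds iron carriers of bacteria. With 22 and 68 reads in PELP1 FBKO and 123 and 61 in FLOXED, it was at 0.997 and 3.33 CPM in PELP1 FBKO, against 7.01 and 2.81 CPM in FLOXED. Here PELP1 FBKO 2 lay between the FLOXED libraries, and FLOXED 1 stood above the other 3.

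None of the 3 secreted proteins passed the test. The log2 fold change was -1.28 for Timp1 (SE 0.932, edgeR quasi-likelihood, adjusted p = 0.547). For Ptx3 it was -1.66 (SE 0.866, edgeR quasi-likelihood, adjusted p = 0.402), and for Lcn2 -1.18 (SE 0.582, edgeR quasi-likelihood, adjusted p = 0.381). Timp1 and Ptx3 were the only 2 of the 10 genes whose genotypes did not overlap, both lower in PELP1 FBKO. Over all tested genes 23% did not overlap in the lower direction and 25.4% were higher in PELP1 FBKO without overlap, as 0 of the 10 genes were.

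Of the membrane proteins, Cd44 encodes a receptor for hyaluronan. It was at 11.7 and 55.3 CPM in PELP1 FBKO, against 43.3 and 68.7 CPM in FLOXED. S1pr3, which encodes a receptor for the lipid mediator sphingosine 1-phosphate, was at 15.5 and 63.8 CPM in PELP1 FBKO, against 52.9 and 69.7 CPM in FLOXED. In both genes PELP1 FBKO 1 was well below the other 3 libraries, and PELP1 FBKO 2 lay between the FLOXED libraries. Emp1, which encodes a tetraspan epithelial membrane protein, was at 5.76 and 17.6 CPM in PELP1 FBKO, against 10.7 and 17.2 CPM in FLOXED. PELP1 FBKO 2 and FLOXED 2 were nearly equal for Emp1. The log2 fold changes were -0.75 for Cd44 (SE 0.57), -0.63 for S1pr3 (SE 0.513) and -0.26 for Emp1 (SE 0.455), with edgeR quasi-likelihood adjusted p-values of 0.566, 0.588 and 0.826 in that order.

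Of the enzymes, Aspg encodes an asparaginase. It was at 7.03 and 26.9 CPM in PELP1 FBKO, against 13.6 and 11.3 CPM in FLOXED. As for Gfap and Vim, the FLOXED libraries lay together between the PELP1 FBKO libraries (log2 fold change 0.45, SE 0.501, edgeR quasi-likelihood, adjusted p = 0.712). Steap4 encodes a metalloreductase that reduces iron and copper, and it was the rarest of the 10 genes, with between 9 and 36 reads. It was at 0.499 and 1.76 CPM in PELP1 FBKO, against 0.513 and 0.507 CPM in FLOXED. The first PELP1 FBKO library and both FLOXED libraries held between 9 and 11 Steap4 reads, and PELP1 FBKO 2 held 36 (log2 fold change 1.13, SE 0.637, edgeR quasi-likelihood, adjusted p = 0.436).

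Levels of different genes were set side by side only per length, as CPM per kilobase of the longest GENCODE vM21 transcript. On that scale Gfap averaged 1016 in PELP1 FBKO and 876 in FLOXED, and Vim 78.9 in PELP1 FBKO and 55.7 in FLOXED. Both stood first and second of the 10 genes in each genotype. Timp1 and Ptx3 followed in FLOXED, at 35.4 and 22.3, against 14.6 and 7.10 in PELP1 FBKO. S1pr3 averaged 8.88 in PELP1 FBKO and 13.7 in FLOXED, so that it stood above Ptx3 in PELP1 FBKO and below it in FLOXED. In PELP1 FBKO 1 Ptx3 was at 0.932 and S1pr3 at 3.46, in PELP1 FBKO 2 they were close, at 13.3 and 14.3, and in FLOXED Ptx3 was the higher of the 2 in both libraries. Lcn2, at 1.57 in PELP1 FBKO and 3.58 in FLOXED, and Steap4, at 0.358 and 0.162, were the lowest of the 10 genes in both genotypes.

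Within each library, levels per 1000 Gfap reads show how unevenly the genes differed. Vim kept to between 61.6 and 90.7 reads per 1000 Gfap reads over the 4 libraries. Timp1 was at 0.574 and 6.42 in PELP1 FBKO, against 14.0 and 12.9 in FLOXED. Ptx3 was at 1.18 and 6.49 in PELP1 FBKO, against 10.7 and 26.2 in FLOXED. Relative to Gfap, the genotypes of both genes did not overlap, with PELP1 FBKO lower. The same held for Cd44, at 7.77 and 14.2 in PELP1 FBKO against 18.2 and 30.4 in FLOXED, S1pr3, at 10.3 and 16.4 against 22.2 and 30.9, and Lcn2, at 0.665 and 0.858 against 2.94 and 1.25. Steap4 did not overlap either but was higher in PELP1 FBKO, at 0.332 and 0.454 in PELP1 FBKO against 0.216 and 0.225 in FLOXED, while Emp1 and Aspg overlapped. Of the 9 genes 5 were thus lower and 1 higher in PELP1 FBKO without overlap relative to Gfap, where 3.79% and 4.81% of all tested genes were. Those shares depend on the choice of Gfap, which was lowest in PELP1 FBKO 1 and highest in PELP1 FBKO 2. A gene of even level overlaps once divided by it. Before the division 23% of tested genes were lower and 25.4% higher without overlap. The shares relative to Gfap are therefore no fair base for the 9 genes, which were also lowest in PELP1 FBKO 1. A ratio to Gfap shows unequal difference and not which of the 2 genes differed, and with 2 libraries against 2 an exact permutation test cannot give a two-sided p below 0.333.

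The genotype difference of most of the 10 genes turned on which PELP1 FBKO library was kept. With all 4 libraries the median log2 fold change was -0.448, against 0.000155 over all tested genes. Of the 10 genes 4 had a positive and 6 a negative log2 fold change, and 0 were called in either direction by edgeR, by DESeq2 (2.19% of genes were called higher and 0.892% lower) or by limma-voom. At an unadjusted p of 0.05, 0 of the 10 were higher and 0 lower, where 10.1% and 5.55% of tested genes were. Without PELP1 FBKO 1 the median was 0.175, and Gfap (log2 fold change 0.72), Vim (1.09) and Aspg (1.10) were called higher, 3 of 10, where 2.99% of tested genes were called higher. Without PELP1 FBKO 2 the median was -1.63, and 7 of 10 were called lower, where 2.12% of tested genes were. These were Timp1 (log2 fold change -5.17), Ptx3 (-4.58), Lcn2 (-2.28), Cd44 (-2.26), S1pr3 (-1.99), Emp1 (-1.28) and Gfap (-0.63). Gfap was thus called higher without the first PELP1 FBKO library and lower without the second. In these fits the lone PELP1 FBKO library is assumed to vary as little as the FLOXED pair, which the 2 PELP1 FBKO libraries did not do for these genes.

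**Figure D3:**
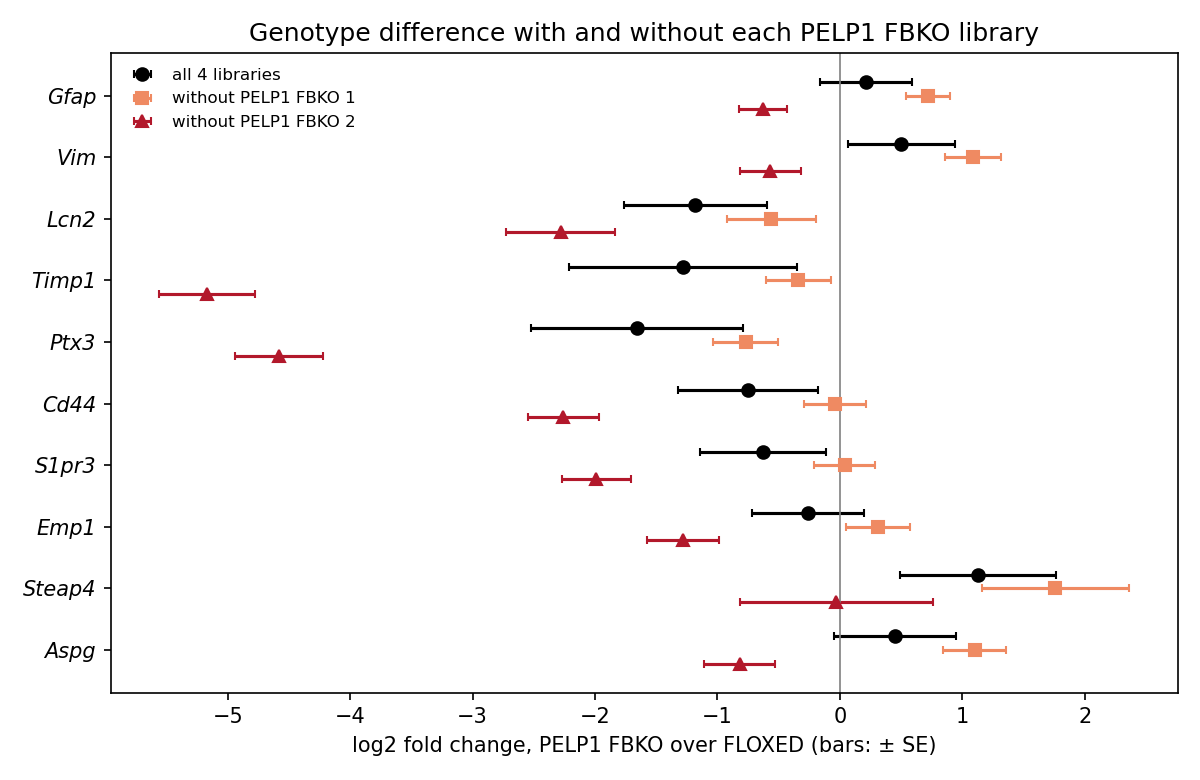
Log2 fold change, PELP1 FBKO over FLOXED, of the 10 reactive astrocyte genes with all 4 libraries, without PELP1 FBKO 1 and without PELP1 FBKO 2; bars are ± SE. With all libraries 0 of the 10 were called, and the points of Gfap, Vim, S1pr3, Emp1, Steap4 and Aspg change sides of 0 with the library left out. S1pr3 (0.04) and Steap4 (-0.03) only just cross it.

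Homeostatic astrocyte genes, which serve glutamate uptake, water and potassium transport and cell coupling, stood in another order of libraries. The median log2 fold change of the 14 markers was 0.557, all 14 values were above 0, and 0 were called by edgeR. At an unadjusted p of 0.05, 10 were higher (10.1% of tested genes were), and DESeq2 called 7 higher (2.19% of genes were). Their summed level was 10240 and 9479 CPM in PELP1 FBKO, against 6226 and 7285 CPM in FLOXED. The median ratio of PELP1 FBKO 2 over PELP1 FBKO 1 was 1.05 for these markers, with a range between 0.804 and 1.61, against 3.68 for the 10 reactive genes, and the 2 ranges did not overlap. Leaving out 1 library at a time gave these markers a median log2 fold change between 0.453, without FLOXED 1, and 0.653, without FLOXED 2. PELP1 FBKO 1 was the lowest library for 1 of the 14 and PELP1 FBKO 2 the highest for 7, where 26.1% and 25% of tested genes were. The defining astrocyte markers were thus present in every library, and the library lowest in reactive genes was not low in them. No test of the difference between the 2 sets of genes was made.

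Other genes reported in reactive astrocytes were described from lists of pan-reactive, ischemia-type and endotoxin-type genes. In these lists and in that of filament and matrix genes edgeR called 0 members in either direction. At an unadjusted p of 0.05, 1 pan-reactive gene was higher and 1 lower, and 1 ischemia-type gene was lower. Among all tested genes 10.1% were higher and 5.55% lower at that threshold. DESeq2 called 0 of both lists. PELP1 FBKO 1 was lowest for 9 of 10 other ischemia-type genes and for 4 of 5 other pan-reactive genes, against 26.1% of tested genes. Their median log2 fold changes were -0.78 and -0.531. Among them the chemokine gene Cxcl10 was at 0.725 and 11.9 CPM in PELP1 FBKO, against 41.4 and 65.7 CPM in FLOXED (log2 fold change -3.10, SE 0.814, edgeR quasi-likelihood, adjusted p = 0.139). Ptgs2, which encodes the inducible cyclooxygenase, was at 26.3 and 42.2 CPM in PELP1 FBKO, against 69.9 and 47.1 CPM in FLOXED. Tm4sf1, a tetraspan gene, was at 17.9 and 63.4 CPM in PELP1 FBKO, against 68.9 and 104 CPM in FLOXED. Cd14, which encodes a coreceptor for endotoxin, was at 8.52 and 20.1 CPM in PELP1 FBKO, against 31.0 and 18.5 CPM in FLOXED. For Cxcl10, Ptgs2 and Tm4sf1 the PELP1 FBKO pair lay below the FLOXED pair, as in 23% of tested genes, and for Cd14 the pairs overlapped. Cp, the ceruloplasmin gene, was the 1 other pan-reactive gene with a positive log2 fold change, at 19.4 and 30.3 CPM in PELP1 FBKO against 12.7 and 15.7 CPM in FLOXED. Osmr, the receptor gene for oncostatin M, was at 12.3 and 28.6 CPM in PELP1 FBKO, against 24.6 and 34.3 CPM in FLOXED. Without PELP1 FBKO 2 the median log2 fold change was -1.52 for the other ischemia-type and -1.26 for the other pan-reactive genes. Without PELP1 FBKO 1 these medians were -0.259 and -0.0632 in the same order.

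The endotoxin-type list had another order of libraries. PELP1 FBKO 1 was lowest for 3 of its 11 tested members, near the share of 26.1% over all tested genes. PELP1 FBKO 2 was highest for 8 (25% of tested genes were highest there), and the median log2 fold change was 0.252. Ggta1, a galactosyltransferase gene, was at 9.70 and 23 CPM in PELP1 FBKO, against 6.05 and 6.50 CPM in FLOXED. Fbln5, which encodes the matrix protein fibulin 5, was at 11.4 and 20.5 CPM in PELP1 FBKO, against 7.93 and 8.03 CPM in FLOXED. Both had PELP1 FBKO libraries above the FLOXED pair, as 25.4% of tested genes had, and 23% had them below it. Iigp1, an interferon-inducible GTPase gene, was at 1.99 and 4.02 CPM in PELP1 FBKO, against 5.42 and 10.6 CPM in FLOXED. DESeq2 called 2 members of this list higher and 1 lower, where 2.19% and 0.892% of genes were. At an unadjusted p of 0.05 edgeR had 3 higher and 1 lower, where 10.1% and 5.55% of tested genes were. Without PELP1 FBKO 1 the median log2 fold change of this list was 0.285, and without PELP1 FBKO 2 it was 0.179. Ugt1a1 had 0 reads in all 4 libraries, and some members of this list, such as the histocompatibility genes, have near copies whose reads cannot be told apart. Of the 6 filament and matrix genes 3 had positive and 3 negative log2 fold changes. DESeq2 had 1 higher (2.19% of genes were) and 0 lower, as had edgeR at an unadjusted p of 0.05 (10.1% of tested genes were higher). Their median log2 fold change was 0.0679 without PELP1 FBKO 1 and -0.284 without PELP1 FBKO 2. Synm, which encodes the filament protein synemin, was at 104 and 88.2 CPM in PELP1 FBKO, against 51.1 and 70.2 CPM in FLOXED, and unlike Gfap and Vim it was not low in PELP1 FBKO 1. Tnc, the tenascin C gene, was at 5.89 and 12.3 CPM in PELP1 FBKO, against 9.87 and 24.6 CPM in FLOXED. Bcan, the brevican gene, was at 272 and 197 CPM in PELP1 FBKO, against 175 and 196 CPM in FLOXED.

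Of the gp130 ligands, receptors and STAT3 pathway genes 11 of 14 had enough reads to be tested, 3 with a positive and 8 with a negative log2 fold change, and edgeR and DESeq2 called 0 of them. At an unadjusted p of 0.05 there were 2 higher and 2 lower of the 11, where 10.1% and 5.55% of all tested genes were. Lif, which encodes the ligand leukemia inhibitory factor, was at 1.81 and 7.79 CPM in PELP1 FBKO, against 16.2 and 25.1 CPM in FLOXED (log2 fold change -2.12, SE 0.533, edgeR quasi-likelihood, adjusted p = 0.128). Il11, another ligand gene, was at 0.317 and 1.22 CPM in PELP1 FBKO, against 1.88 and 3.0 CPM in FLOXED. Both ligand genes were lowest in PELP1 FBKO 1, and their genotypes did not overlap, as 23% of tested genes did not in the lower direction. Il6ra, the receptor gene for interleukin 6, was at 10.3 and 9.60 CPM in PELP1 FBKO, against 4.96 and 6.78 CPM in FLOXED. PELP1 FBKO 1 was the lowest library for 7 of the 11 tested genes, against 26.1% of all tested genes. Without PELP1 FBKO 2 the median log2 fold change of the list was -1.23, and without PELP1 FBKO 1 it was -0.0632. The lists are not separate, since Osmr is also in the pan-reactive list and Clcf1 in the ischemia-type list.

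**Figure D4:**
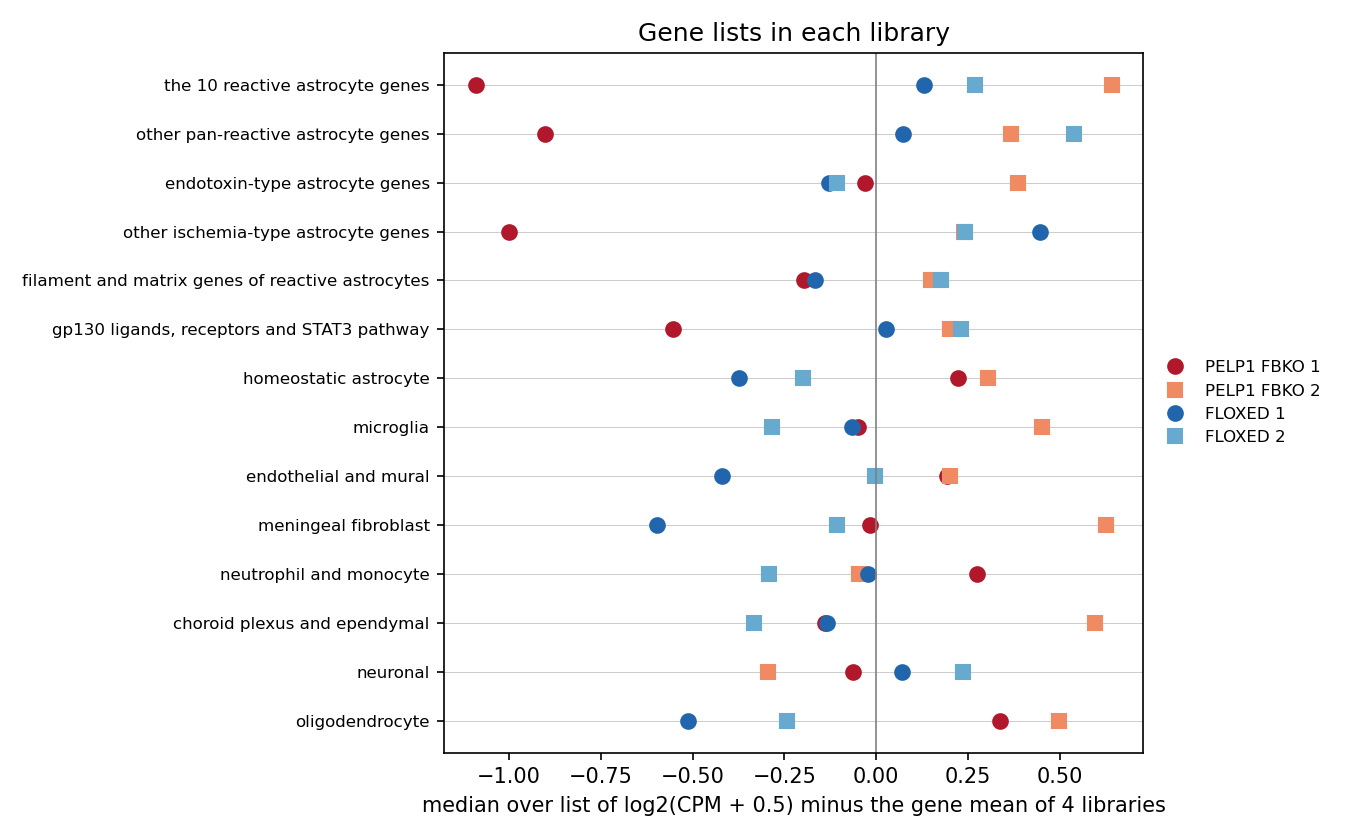
Median over each gene list of log2 of CPM plus 0.5, centred on each gene's mean of 4 libraries, with 1 point per library. The 10 reactive astrocyte genes lie at -1.09 in PELP1 FBKO 1 and 0.641 in PELP1 FBKO 2, against 0.131 in FLOXED 1 and 0.268 in FLOXED 2, and the homeostatic astrocyte markers at 0.223 and 0.305 in PELP1 FBKO.

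Markers of other cells that make some of these genes were read in the same libraries. The 9 neutrophil and monocyte markers summed to 10.2 and 10.3 CPM in PELP1 FBKO, against 6.62 and 7.24 CPM in FLOXED. Most of this sum was Csf3r, and the other 8 markers summed to 2.4 and 2.4 CPM in PELP1 FBKO, against 2.79 and 2.26 CPM in FLOXED, which overlapped. Of the 9 markers Elane had 0 reads in every library, and S100a8 had between 0 and 11 reads. Microglial markers, 10 in all, summed to 714 and 986 CPM in PELP1 FBKO, against 663 and 593 CPM in FLOXED. For the 13 endothelial and mural markers the sums were 379 and 399 CPM in PELP1 FBKO, against 241 and 311 CPM in FLOXED. The 8 meningeal fibroblast markers summed to 177 and 261 CPM in PELP1 FBKO, against 132 and 163 CPM in FLOXED. In the microglial, vascular and fibroblast lists both PELP1 FBKO sums lay above both FLOXED sums. PELP1 FBKO 1 was the lowest library for 2 of 10 microglial, 1 of 13 endothelial and mural and 2 of 8 fibroblast markers (26.1% of tested genes). The same library was lowest for 0 of 4 tested neutrophil and monocyte markers. PELP1 FBKO 2 was the highest for 9 microglial, 6 endothelial and mural, 7 fibroblast and 1 neutrophil and monocyte marker (25% of tested genes). It was also the highest for 5 of 7 choroid plexus and ependymal, 6 of 6 oligodendrocyte and 0 of 7 neuronal markers, against 5 of the 10 reactive genes. Choroid plexus and ependymal markers summed to 74.1 and 102 CPM in PELP1 FBKO, against 361 and 115 CPM in FLOXED, with most of both FLOXED sums from transthyretin (Ttr). Without Ttr the other 6 summed to 52.7 and 68 CPM in PELP1 FBKO, against 37.1 and 47.2 CPM in FLOXED. Neuronal markers summed to 5361 and 4561 CPM in PELP1 FBKO, against 4776 and 4845 CPM in FLOXED, mostly from Snap25 and Syt1. Of the 7 neuronal markers 2 had a positive and 5 a negative log2 fold change. DESeq2 called 3 of them lower, where 0.892% of genes were. Levels are given for the 3 neuronal markers with the smallest unadjusted p-values. Wfs1 was at 81.7 and 69.7 CPM in PELP1 FBKO, against 96.3 and 165 CPM in FLOXED. Fibcd1 was at 150 and 129 CPM against 232 and 206 CPM, and Pou3f1 at 38.8 and 28.7 CPM against 57.0 and 71.9 CPM. The log2 fold changes of the general neuronal markers were smaller, 0.09 for Snap25, 0.28 for Syt1, -0.09 for Stmn2 and -0.3 for Rbfox3. Oligodendrocyte markers summed to 5336 and 5702 CPM in PELP1 FBKO, against 2681 and 3398 CPM in FLOXED. DESeq2 called 5 of 6 oligodendrocyte, 2 of 10 microglial and 2 of 8 fibroblast markers higher. It also called 2 of 7 choroid plexus and ependymal and 1 of 13 endothelial and mural markers higher, where 2.19% of genes were. Of these lists it called 0 markers lower. The part of these cells in the levels of the 10 genes was not tested.

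The genes most like Gfap were those with the smallest Euclidean distance between centred log2 profiles over the 4 libraries, among 12873 other genes with a mean of at least 1 CPM. They were Emilin1, at a distance of 0.168, Gpr65 (0.181), Layn (0.198), Pdpn (0.200) and Hpgd (0.226). Pdpn, which encodes podoplanin, was at 15.1 and 34.1 CPM in PELP1 FBKO, against 20.8 and 22.3 CPM in FLOXED. Nearest to the median profile of the other 9 genes were Gldn (0.111), Tlr2 (0.220), Slc44a3 (0.303), Glipr2 (0.305) and Btc (0.321). Tlr2, which encodes a Toll-like receptor, was at 3.63 and 11.5 CPM in PELP1 FBKO, against 9.70 and 10.9 CPM in FLOXED. With 4 libraries such nearness is a description of these samples.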

How the data were processed

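The authors deposited raw counts, reads per gene symbol with no normalization, for each of the 4 libraries. Libraries were TruSeq RNA preparations sequenced as 50-base single reads, per the labels' protocols. Reads were processed with CASAVA 1.8.2, TopHat2 2.0.8b and HTSeq on the mouse build mm9, per the submitters' processing notes, while the series text names a human build although the symbols are mouse. No label gives the strand and overlap settings of HTSeq. The 5 HTSeq rows that name no gene entered neither library sizes nor tests. Between 14.7% and 15.7% of uniquely placed reads lay in no gene, and between 38.5% and 47.7% of all alignments were not unique and so were not counted.

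Genotypes came from the labels. Replicates differed by more than sampling noise (chi-square per degree of freedom 17.4 for the PELP1 FBKO pair and 23.3 for the FLOXED pair), so each library counted as a sample. Genotype was tested with the quasi-likelihood F test of edgeR 4.0.16 (R 4.3.3), after TMM scaling and filterByExpr, adjusted over 14978 genes by Benjamini-Hochberg at 0.05. Standard errors came from the F statistic. Simulated counts, with the same dispersion for every gene, were used to check that set fold changes were recovered. The rate of false calls was not checked. DESeq2 1.42.0, limma-voom (limma 3.58.1), other scalings and filters, a replicate block and leaving out each library were alternatives. Log2 medians per library used CPM plus 0.5.

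The 10 genes and the lists were chosen with earlier results of these data known. Named genes were all 10, the 3 smallest unadjusted p-values of each reactive or pathway list, and the 5 nearest profiles. Every neuronal marker was named as well, with levels for the 3 of smallest unadjusted p. Csf3r, Ttr, Elane and S100a8 were named for their part of a sum or their few reads. No exon of the 10 genes overlapped that of another counted gene in GENCODE vM21, which is on GRCm38 and gave transcript lengths and no coordinates.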

Additional observations from a re-analysis of the deposited data

How the results depend on the processing

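With 0 genes called either way by the quasi-likelihood test, the calls over all genes moved with most choices, given here as higher and then lower in PELP1 FBKO. They were 13 and 4 with DESeq2 size factors, 20 and 3 with library size only, 278 and 81 with every gene of at least 1 read, 19 and 3 over genes whose 4 libraries each held 10 reads or more, and 319 and 130 with DESeq2. Leaving out a library gave between 0 and 457 genes higher and between 0 and 324 lower. Of the 10 reactive astrocyte genes, between 0 and 3 were then called higher and between 0 and 7 lower, and their median log2 fold change lay between -1.63 and 0.175.

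The replicate block gave 387 genes higher and 179 lower, or 2.58% and 1.2% of tested genes. It called 4 of the 10 genes lower, Timp1 (log2 fold change -2.21), Ptx3 (-2.32), Cd44 (-1.07) and S1pr3 (-0.93), but the libraries share only a number. Deviations of same-numbered libraries correlated at -0.11. A crossed replicate block, chosen after seeing the data, gave 223 and 91 genes (1.49% and 0.608%) and called 0 of the 10.

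Directions turned only when a library was left out: the log2 fold change lay between -0.63 and 0.72 for Gfap, -0.57 and 1.09 for Vim, -0.82 and 1.10 for Aspg, -0.03 and 1.76 for Steap4, -1.28 and 0.31 for Emp1, and -1.99 and 0.04 for S1pr3. For Timp1, Ptx3 and Lcn2 the direction was lower in PELP1 FBKO in each of these fits, but the size was not stable. Without PELP1 FBKO 1 the log2 fold change shrank to -0.34 for Timp1, -0.77 for Ptx3 and -0.56 for Lcn2. For Lcn2 it was -0.39 without FLOXED 1. Cd44 did not turn either, but without PELP1 FBKO 1 its log2 fold change was only -0.04 (SE 0.252). The turns of S1pr3, to 0.04 without PELP1 FBKO 1, and of Steap4, to -0.03 without PELP1 FBKO 2, were no larger. These genes are not told apart from Cd44 by direction. The cause was not tested. Steap4 had too few reads for the filter of 10 reads in every library, and the depth limits its values and those of Lcn2 most.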
